A study of Rattus norvegicus with 232 samples.

Results

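The metabotropic glutamate receptor genes Grm2, Grm3, Grm4, Grm5, Grm7 and Grm8 were followed in the brain across inbred rat strains. These 6 genes were taken by name, not by a measured value, though earlier results of these data were known when they were chosen. All 6 were found among the 20859 genes of the RefSeq gene table. RNA had been sequenced from whole brain, after removal of ribosomal RNA, in untreated rats that are male where the labels give a sex. For the part of the strains that they describe, the study's methods give the age of young adults and add that each brain was cut sagittally. The table covered 197 animals of 74 strains, with 3 animals in 54 strains, 2 in 15 and 1 in 5. Animals of an inbred strain are near-identical in genotype, so a strain is the group here. The 3 panels were 30 recombinant inbred strains of the HXB/BXH family (88 animals), 19 of the FXLE/LEXF family (43 animals) and 25 classic inbred strains (66 animals). The HXB/BXH strains descend from SHR/OlaIpcv, the spontaneously hypertensive rat, and BN-Lx/Cub, a strain of Brown Norway background. The FXLE/LEXF strains descend from F344/Stm and LE/Stm. All 4 progenitors are counted among the classic inbred strains.

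Metabotropic glutamate receptors are G protein-coupled receptors that slow or sharpen glutamate transmission over longer times than the glutamate-gated channels. Group I, to which Grm5 belongs, couples through Gq to phospholipase C and lies mostly behind the synapse. Group II (Grm2 and Grm3) and group III (Grm4, Grm6, Grm7 and Grm8) couple through Gi and Go, lower cyclic AMP, and mostly restrain transmitter release from the presynaptic terminal. A premature stop variant in Grm2 is known in some laboratory rats. Genotypes were not analysed here, so no strain could be assigned to a Grm2 allele.

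The deposited values are regularized log2 values of estimated read counts, from which the authors had removed a factor of unwanted variation. The sequencing depth is unknown because the tables hold no counts, and differences on this scale are shrunk toward 0, so that fold changes are understated. Levels are not scaled to gene length and are therefore compared between strains only, never between genes. The median value of the 214 libraries lay between 8.18 and 8.42, and no pair of libraries held identical values. By the batch characteristic of the labels the libraries fell into 17 sequencing batches, and batch has this meaning below unless stated. For 23 of the 214 libraries the sample title gives another batch number. SHR/OlaIpcv had 2 animals that had been sequenced repeatedly, in 12 and 6 libraries, and each was averaged to 1 animal. In 4 animals, the 3 of LEW/Crl and animal 2 of HXB17/Ipcv, the Y-linked gene Kdm5d stood at 9.32 to 9.64 against at least 10.21 in all others, and Eif2s3y and Uty were likewise lowest in these 4. The single LE/Stm animal carried liver transcripts at a mean of 17.64, against a median of 8.60 over strains.

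All 6 receptors were measured well above the bottom of the table. Over the 197 animals Grm2 ran from 8.88 to 10.78 with a median of 9.97. Grm3 ran from 12.02 to 12.58 (median 12.30). Grm4 ran from 10.46 to 12.40 (median 11.28). Grm4 and Grm2 thus spread the most between animals. The remaining receptors were tighter, with SDs over animals of 0.14 for Grm5, 0.09 for Grm7 and 0.12 for Grm8, against 0.29 for Grm2 and 0.39 for Grm4. Grm5 ran from 12.62 to 13.43, Grm7 from 11.00 to 11.53 and Grm8 from 9.99 to 10.55. The plot of strain means shows a pair of classic inbred strains lying apart in Grm2 and a pair of HXB strains at the lower end of Grm7.

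**Figure D1:**
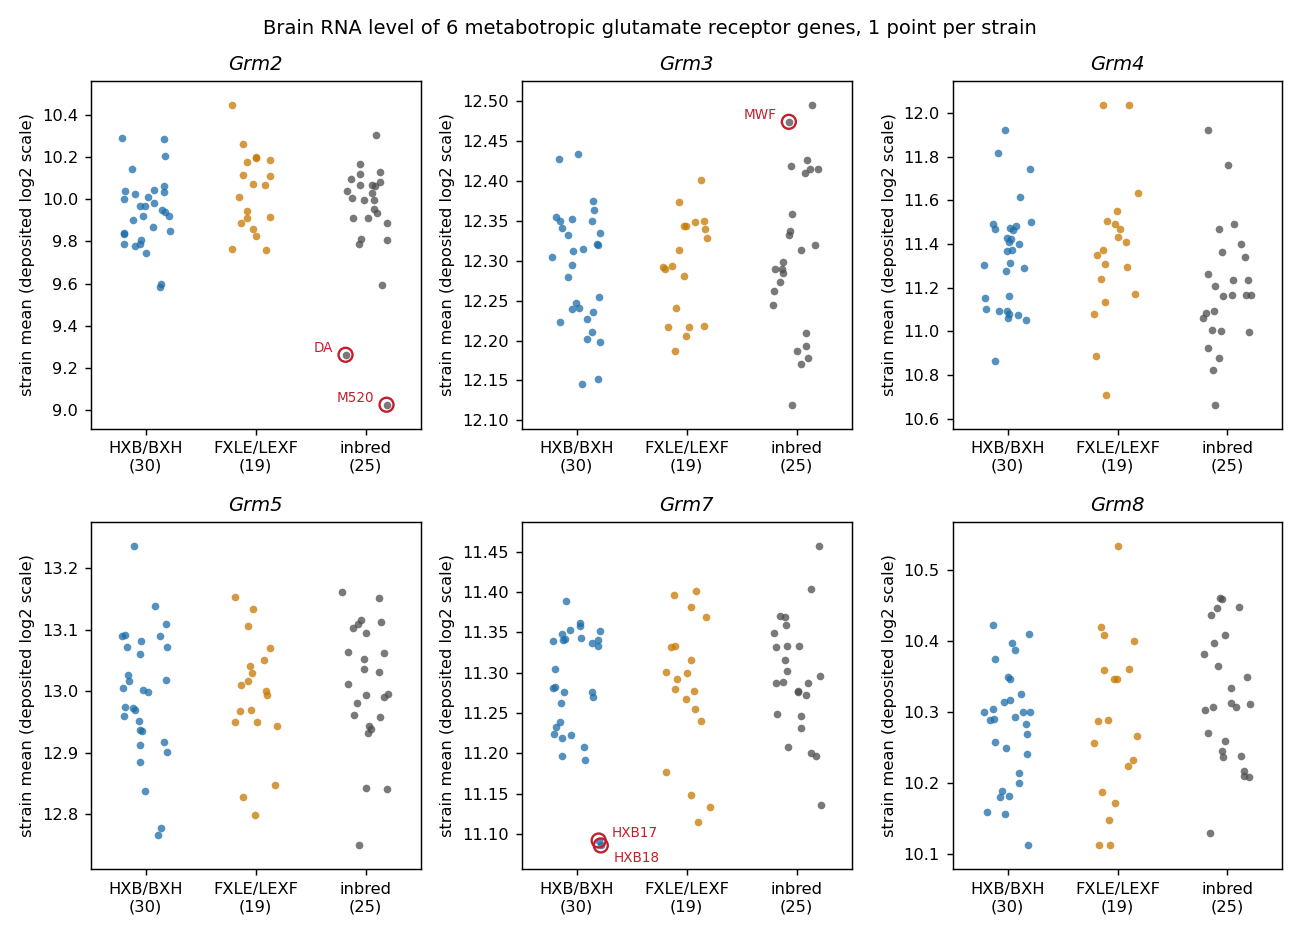
Mean RNA level of each receptor (vertical axis, deposited log2 scale) in each of 74 strains, as 1 point per strain, by panel with the number of strains in brackets. Circled and named are the strains that differed from the mean of all other strains at an adjusted p under 0.05: M520/N (9.03) and DA/OlaHsd (9.26) for Grm2, MWF/Hsd (12.47) for Grm3, and HXB17/Ipcv and HXB18/Ipcv (both 11.09) for Grm7.

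How much of the variation between animals lay between strains was asked first. The share of the total sum of squares between strains, R2, would be 37.2% in this layout without any strain effect, and its median over all genes was 45.1%. Over the 6 receptors the median was 54.6%. R2 was 58.9% for Grm7, 57.2% for Grm3, 56.6% for Grm2, 52.6% for Grm8, 48.7% for Grm5 and 45.9% for Grm4. By the moderated F-test of limma 5 of the 6 receptors varied between strains at an adjusted p under 0.05, where 37.3% of all genes did. The adjusted p was 0.000237 for Grm2, 0.000285 for Grm7, 0.000714 for Grm3, 0.00683 for Grm8 and 0.0349 for Grm5. Grm4 did not pass, with an adjusted p of 0.0669, but passed in 4 of 16 alternatives: with batch as a covariate (adjusted p 0.0305) or as a term over libraries (0.0210), without the animals numbered 2 (0.00416), and in the v5 Ensembl table (R2 68.1%, adjusted p 1.57e-08). Grm5 lost its call in 7 of 16: without the animals numbered 1 (adjusted p 0.419), 2 (0.204), 3 (0.0964) or 4 (0.0644), with centred library medians (0.0630), with 1 library per animal (0.0620) and in the v6 Ensembl table (0.219). The Ensembl tables hold fewer strains, 45 with 132 animals in v5 and 58 with 165 animals in v6. Their R2 without a strain effect thus differs from 37.2%. Grm6, the receptor of retinal ON bipolar cells, varied between strains (R2 58.8%, adjusted p 4.33e-05) at a low level in brain, with strain means of 4.40 to 5.43.

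These calls depended on the fit. Grm2 lost its call in 1 of the 16 alternatives, Grm3 in 3, and Grm7 and Grm8 in 4 each. Without the animals numbered 1, 2 or 3 in turn, 1 or 2 of the receptors passed, and the share of all genes that passed fell as low as 14.4%. In the reconstructed gene table of the same release 2 of the receptors passed, where 20.2% of all genes did. That table splits every receptor but Grm4 into several features, Grm7 into 7, and 1 feature of each receptor was tested.

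**Figure D2:**
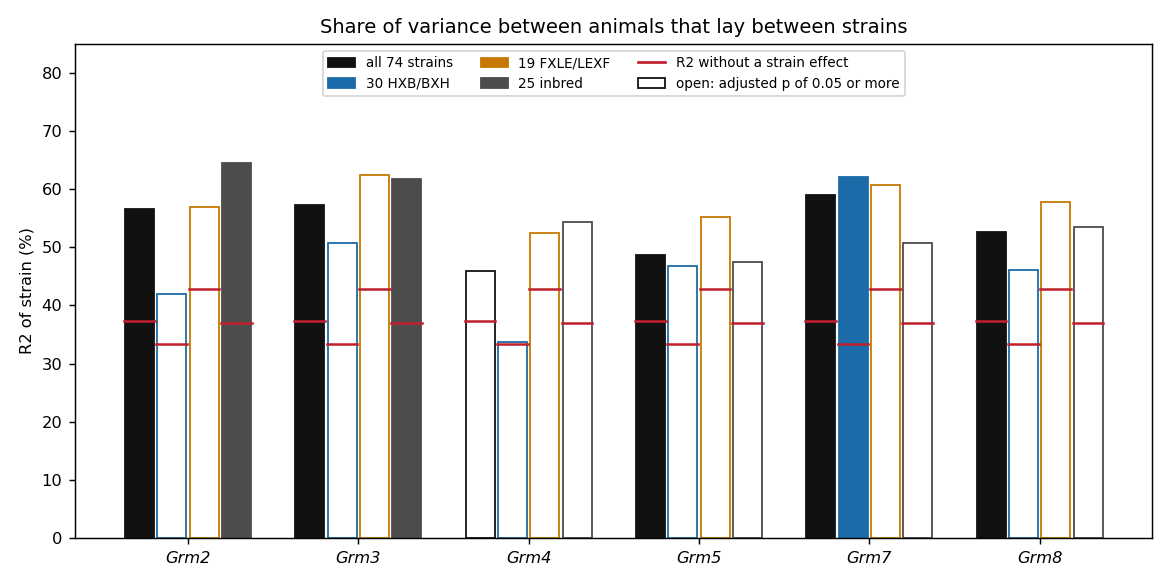
R2 of strain (vertical axis, percent of the variance between animals) for each receptor over all 74 strains and within each panel. Filled bars passed an adjusted p under 0.05 in the F-test of limma, open bars did not, and each red line is the R2 that the layout gives without a strain effect. Grm7 passed within HXB/BXH at 62.1%, and Grm2 and Grm3 passed within the classic inbred strains at 64.4% and 61.8%.

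Grm2, the group II receptor that acts mainly as an autoreceptor on glutamatergic terminals, had the widest range of strain means. They ran from 9.03 in M520/N to 10.45 in LEXF5/Stm, a difference of 1.42 or 2.67-fold on this scale. The 3 M520/N animals stood at 9.30, 8.88 and 8.90. The 3 DA/OlaHsd animals stood at 9.23, 9.18 and 9.37. The ranges of these strains overlapped each other and lay at the bottom of the panel, where the median of all other animals was 9.97. Of the 194 animals outside M520/N, 3 stood at or below its highest animal, and 4 of the 194 outside DA/OlaHsd stood at or below the highest of that strain. The lowest animal outside these strains was BN-Lx/Cub animal 1 at 9.02, while the other BN-Lx/Cub animals stood at 9.53 and 10.22. BN-Lx/Cub thus spread widely, and its mean of 9.59 did not pass against that of the other strains (adjusted p 0.210).

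M520/N was lower than the mean of the other strains by an estimated difference of -0.94 (SE 0.14, 1.92-fold, limma adjusted p 5.45e-07). DA/OlaHsd was lower by a difference of -0.70 (SE 0.14, 1.63-fold, limma adjusted p 0.000558). These tests ran over all genes and all strains together, and 1.2% of all pairs of a gene and a strain passed, 0.553% with the strain lower and 0.651% with the strain higher. Of the 444 pairs of a receptor and a strain 5 passed (1.13%), 4 of them with the strain lower and 1 higher, a share near that of all genes. No other strain was called for Grm2. In M520/N 1.44% of all genes were called and in DA/OlaHsd 1.10%, both near the share over all strains. LEXF5/Stm at the upper end (animals at 10.26 and 10.63) and SR/JrHsd (10.78, 10.06 and 10.07) did not pass, with adjusted p of 0.150 and 0.255.

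**Figure D3:**
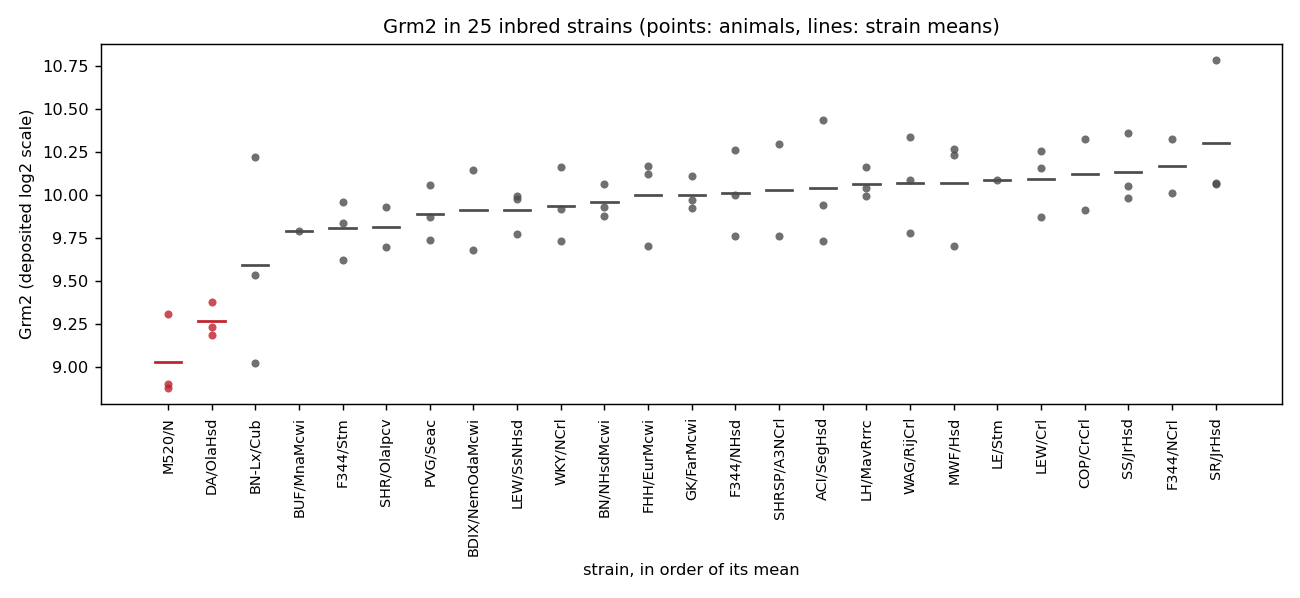
Grm2 level (vertical axis, deposited log2 scale) in the animals of the 25 classic inbred strains (points), with the strain means as lines and the strains in order of their mean. The animals of M520/N and DA/OlaHsd, in red, all lie between 8.88 and 9.37, and the nearest animals of other strains belong to BN-Lx/Cub.

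Sequencing batch was examined for both strains by setting each animal beside the other animals of its own batch. The M520/N animals came from 3 batches. Each was the lowest of its batch in Grm2, below 14, 14 and 11 other animals, and the batch medians were 9.97, 9.99 and 10.06. The DA/OlaHsd animals came from 2 batches, and each was lower than the 14 or 8 animals of other strains in its batch, with batch medians of 10.02 and 9.95. With batch as a term over all single libraries M520/N kept a difference of -0.93 (adjusted p 0.000104) and DA/OlaHsd of -0.55 (adjusted p 0.0456). When batch was instead a covariate of the averaged animals the differences were -0.74 and -0.75 with adjusted p of 1.0 and 0.806. In that fit no receptor passed for any strain, and 0.108% of all pairs of a gene and a strain did. By the sample titles, an alternative taken after seeing the data, all 3 DA/OlaHsd libraries belong to batch 8, where the characteristic and the column headers give batches 10, 10 and 8. Each was then below all 20 other libraries of that batch, whose median was 10.00. With the title batch as a term over all libraries the DA/OlaHsd difference was -0.38 and did not pass (adjusted p 0.488), while that of M520/N was -0.93 (adjusted p 0.000163). The DA/OlaHsd call thus depended on which batch number was used.

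Of the 2 RefSeq transcripts of Grm2 the transcript table held 1, NM_001105711.1. This transcript, estimated from the same animals, showed the same order. Its level was 4.80 in M520/N and 5.68 in DA/OlaHsd, against a median strain mean of 7.11. M520/N differed by -2.26 (limma adjusted p 1.95e-06) and DA/OlaHsd by -1.36 (limma adjusted p 0.0288), where 0.402% of all pairs of a transcript and a strain passed. In tables of other processing versions the Grm2 difference of M520/N was -1.39 (reconstructed genes) and -1.14 (v6 Ensembl genes), and that of DA/OlaHsd was -0.98, -0.85 and, in the v5 Ensembl table, -0.99. M520/N is not among the strains of the v5 table.

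Grm2 lies on chromosome 8 of the rn6 genome, from 115344999 to 115358046 on the minus strand (ENSRNOG00000013171). Whether its neighbours moved too was read from the 5 named genes on each side in the RefSeq gene order: Abhd14b, Pcbp4, Gpr62, Parp3 and Rrp9 on one side, and Tex264, Rad54l2, Dcaf1, Rbm15b and Manf on the other. Of these 10 genes 0 were called by limma in M520/N, with differences from -0.22 (Pcbp4) to 0.08 (Dcaf1). In DA/OlaHsd also 0 of 10 were called, with differences from -0.16 to 0.07. At an unadjusted p under 0.05 the count was 0 in both strains, where 12.2% of all genes passed in M520/N and 7.58% in DA/OlaHsd. The lower RNA level was thus measured for Grm2 and was not detected for the genes beside it. Marker lists of brain regions and cell types, related to Grm2 further on, differed in these strains as well. The thalamus and midbrain list, which ran against Grm2 over strains (r = -0.372, permutation adjusted p 0.00887), was high in both, at 9.01 in M520/N (rank 61 of 74 strains from the lowest) and 9.04 in DA/OlaHsd (rank 68), against a median of 8.86. The oligodendrocyte list, which also ran against Grm2 (r = -0.365, permutation adjusted p 0.00877), stood at 14.75 (rank 55) and 14.83 (rank 69), against a median of 14.69. Of the lists that ran with Grm2, the cortex and hippocampus list stood at 10.63 in M520/N and 10.70 in DA/OlaHsd (ranks 14 and 37, median 10.70) and the neuron list at 13.40 and 13.36 (ranks 40 and 19, median 13.39). The endothelium list stood at 10.54 and 10.56 (ranks 15 and 23, median 10.61) and that of oligodendrocyte precursors at 10.38 and 10.56 (ranks 19 and 62, median 10.44). Among lists whose relation to Grm2 did not pass, the cerebellum list was low in both, at 9.91 (rank 9) and 9.74 (rank 2) against a median of 10.17, and the choroid plexus list of M520/N, at 8.88 against 9.27, was the second lowest of the panel. The part of these lists in the Grm2 differences was not tested.

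Grm3, the group II receptor of both neurons and glia that also responds to N-acetylaspartylglutamate, had strain means between 12.12 in SHR/OlaIpcv and 12.49 in BUF/MnaMcwi (1 animal). The gene lies on rn6 chromosome 4, from 21317695 to 21560490 on the plus strand. MWF/Hsd, with animals at 12.54, 12.43 and 12.45, was higher than the mean of the other strains by 0.18 (SE 0.05, 1.13-fold, adjusted p 0.0486). In its batches the MWF/Hsd animals were higher than all 14, all 14 and 10 of 11 others. The 10 nearest named genes were all higher in MWF/Hsd too, by 0.02 (Tmem243) to 0.22 (Sema3e), the latter above the difference of Grm3 itself. By limma 0 of the 10 were called (lowest adjusted p 0.159), and 4 passed an unadjusted p under 0.05. Of all genes 1.87% were called in this strain and 16.5% passed the unadjusted threshold. The call lay at the edge of the threshold and was lost in 13 of 15 alternatives, where the adjusted p reached 1.0. Within the classic inbred strains Grm3 passed the F-test with an adjusted p of 0.0309. This call was lost in 10 of 14 alternatives, among them the replicate number as a block (adjusted p 0.0567), batch as a covariate (0.152), leaving out the animals numbered 2 (0.723) and the reconstructed (0.580), v6 (0.401) and v5 (0.607) tables, with an R2 of 31.8% in the last. MWF/Hsd was low in marker lists that ran against Grm3 over strains. The choroid plexus list (r = -0.294) stood at 9.01 (rank 11 of 74 from the lowest, median 9.27), the olfactory bulb list (r = -0.455) at 5.85 (rank 18, median 5.95) and the endothelium list (r = -0.413) at 10.55 (rank 19, median 10.61). The oligodendrocyte list, which ran with Grm3 (r = 0.481), stood at 14.74 (rank 53, median 14.69). Of the lists whose relation to Grm3 did not pass, that of thalamus and midbrain was high (9.12, rank 72, median 8.86), and those of microglia (9.40, rank 6, median 9.56) and cerebellum (9.89, rank 8, median 10.17) were low. Their part in the Grm3 difference was not tested.

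Grm5, the Gq-coupled receptor of forebrain dendrites, had strain means from 12.75 in SHR/OlaIpcv to 13.24 in HXB24/Ipcv. It lies on rn6 chromosome 1, from 151439409 to 151783256 on the plus strand. No strain was called by limma, and 8 of 74 passed an unadjusted p under 0.05, as 11.8% of all pairs of a gene and a strain did. HXB24/Ipcv (animals at 13.27, 13.13 and 13.31) had an adjusted p of 0.075, HXB1/Ipcv (12.80, 12.74 and 12.76) of 0.088 and SHR/OlaIpcv (12.78 and 12.72) of 0.166. The animals of the lowest strains did not overlap those of HXB24/Ipcv, but none of them stood apart from the panel as a whole by the test.

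Grm7, the low-affinity group III receptor of the presynaptic active zone, had strain means from 11.09 in HXB18/Ipcv to 11.46 in BUF/MnaMcwi. It lies on rn6 chromosome 4, from 142780987 to 143367578 on the plus strand. HXB17/Ipcv and HXB18/Ipcv were the lowest strains of the panel, and their ranges overlapped. The HXB17/Ipcv animals stood at 11.08, 11.12 and 11.07, and the HXB18/Ipcv animals at 11.02, 11.23 and 11.00. HXB17/Ipcv was tight, with 7 of the 194 other animals at or below its highest animal. HXB18/Ipcv was not, because animal 2 at 11.23 lay among the others, and 52 of 194 animals stood at or below it.

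HXB17/Ipcv differed from the mean of the other strains by -0.20 (SE 0.05, limma adjusted p 0.00842) and HXB18/Ipcv by -0.20 (SE 0.05, limma adjusted p 0.00564), each about 1.15-fold lower. In their batches the HXB17/Ipcv animals were lower than 12 of 12, 12 of 12 and 20 of 21 others, and the HXB18/Ipcv animals than 15 of 15, 16 of 20 and 20 of 20. With batch as a term over all libraries the differences were -0.23 (adjusted p 0.007) and -0.25 (adjusted p 0.0024). Without the 4 animals low in Y-linked genes, HXB17/Ipcv animal 2 and the 3 of LEW/Crl, the difference of HXB17/Ipcv was -0.21 (adjusted p 0.0317). Both calls were lost with batch as a covariate of averaged animals (adjusted p 0.222 and 0.190) and without the animals numbered 1 or 3. They were also lost in the reconstructed gene table (adjusted p 0.196 and 0.051), where 1 of the 7 Grm7 features was tested. The call of HXB17/Ipcv was lost without the animals numbered 2 as well. Of the 10 nearest named genes 0 were called in either strain by limma, with differences from -0.15 to 0.18, and at an unadjusted p under 0.05 the counts were 0 in HXB17/Ipcv and 2 in HXB18/Ipcv. Of all genes 1.56% were called in HXB17/Ipcv and 1.28% in HXB18/Ipcv, and 18.3% and 10.5% passed the unadjusted threshold.

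Several marker lists that ran against Grm7 over strains were high in 1 or both of these strains. The cerebellum list (r = -0.476) stood at 10.33 in HXB17/Ipcv and 10.38 in HXB18/Ipcv, ranks 60 and 63 of 74 from the lowest, against a median of 10.17. The microglia list (r = -0.334) stood at 9.64 and 9.80 (ranks 54 and 71, median 9.56), and the choroid plexus list (r = -0.376) at 9.46 and 9.33 (ranks 63 and 48, median 9.27). The remaining lists that ran against Grm7 were high in HXB17/Ipcv, and not in HXB18/Ipcv. The astrocyte list (r = -0.524) stood at 12.81 and 12.68 (ranks 68 and 28, median 12.71), the endothelium list (r = -0.373) at 10.71 and 10.54 (ranks 66 and 17, median 10.61), and the list of oligodendrocyte precursors (r = -0.297) at 10.57 and 10.44 (ranks 65 and 38, median 10.44). The cortex and hippocampus list, which ran with Grm7 (r = 0.313), stood at 10.76 and 10.63 (ranks 58 and 15, median 10.70). By Spearman's rho only, the striatum list ran with Grm7 (0.299) and the pituitary list against it (-0.293). The striatum list stood at 10.60 and 10.65 (ranks 11 and 19, median 10.72) and the pituitary list at 4.87 and 4.79 (ranks 57 and 42, median 4.78). The blood list, whose relation to Grm7 did not pass, stood at 10.74 and 12.05 (ranks 5 and 71, median 11.19). The part of all these lists in the Grm7 differences was not tested.

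Among the Grm7 transcripts XM_039108424.1 was lowest in HXB18/Ipcv at 9.70, a difference of -0.42 (adjusted p 0.0312). In HXB17/Ipcv it stood at 9.73, a difference of -0.39 that did not pass (adjusted p 0.0648). The transcript NM_031040.1 was called in neither strain, with differences of -0.20 in HXB17/Ipcv and -0.33 in HXB18/Ipcv. HXB18/Ipcv was also the lowest strain for Grm6, with a mean of 4.40 and a difference of -0.48 (adjusted p 0.0119).

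**Figure D4:**
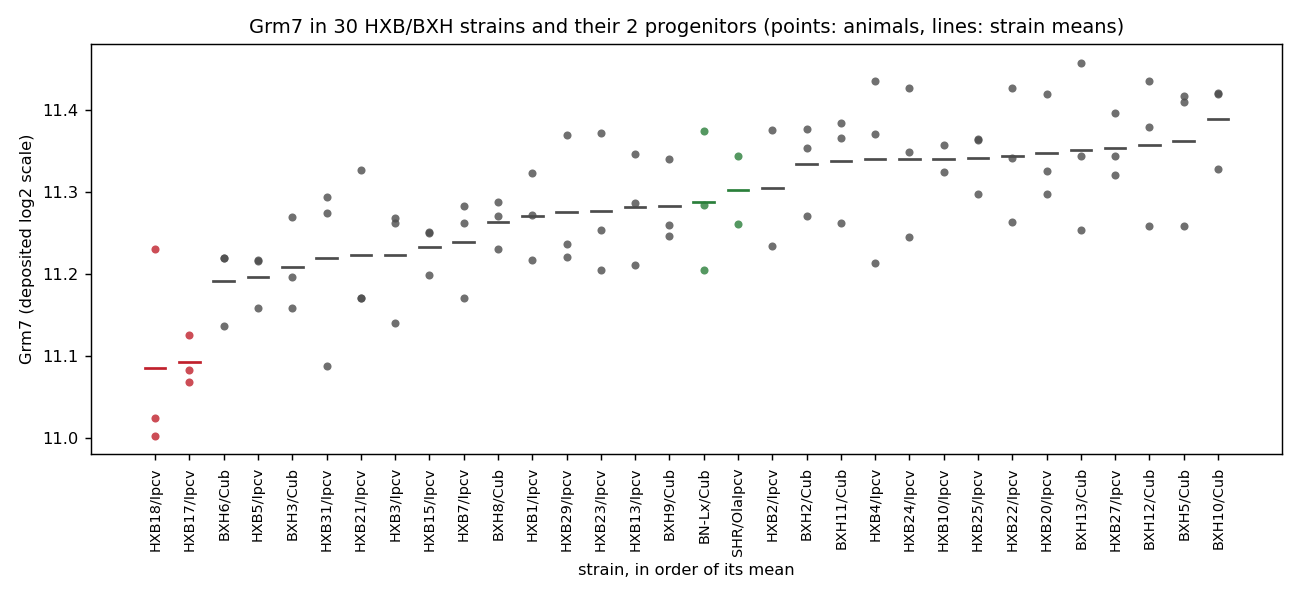
Grm7 level (vertical axis, deposited log2 scale) in the animals (points) of 30 HXB/BXH strains and their progenitors, with strain means as lines and strains in order of their mean. HXB17/Ipcv and HXB18/Ipcv, in red, have means of 11.09, and the progenitors BN-Lx/Cub (11.29) and SHR/OlaIpcv (11.30), in green, lie in the middle of the family.

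Grm4, the group III receptor best known from the parallel fibre terminals of cerebellar granule cells, had strain means from 10.66 in MWF/Hsd to 12.04 in LEXF9/Stm (1 animal), a range of 2.59-fold on this scale. It lies on rn6 chromosome 20, from 6745682 to 6791519 on the minus strand. The MWF/Hsd animals stood at 10.64, 10.78 and 10.58 and the LEXF1C/Stm animals, next to the top, at 12.08 and 11.99. No strain was called (limma adjusted p 0.106 for MWF/Hsd and 0.143 for LEXF1C/Stm), and 8 of 74 passed an unadjusted p under 0.05, near the 11.8% of all pairs. Animals of the same strain differed with an SD of 0.36. On the cerebellum list, which ran with Grm4 (r = 0.758), LEXF9/Stm was the highest of all strains at 10.67. MWF/Hsd stood there at 9.89 (rank 8 of 74 from the lowest, median 10.17), and on the endothelium list (r = 0.377) at 10.55 (rank 19, median 10.61). LEXF9/Stm also had the lowest cortex and hippocampus list and the highest thalamus and midbrain list. The part of these lists in the Grm4 range was not tested. Grm8, the group III receptor with high glutamate affinity, had strain means from 10.11 in HXB2/Ipcv to 10.53 in FXLE13/Stm (1 animal), with no strain called and 11 of 74 past an unadjusted p under 0.05, beside the same 11.8%. It lies on rn6 chromosome 4, from 54474136 to 55407922 on the minus strand. M520/N stood near its upper end, with animals at 10.51, 10.46 and 10.41 (difference 0.17, adjusted p 0.215), and SR/JrHsd near its lower end at 10.08, 10.19 and 10.12 (adjusted p 0.204).

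The error behind a single library could be read from the 2 SHR/OlaIpcv animals that were sequenced repeatedly. For Grm2 the 12 libraries of animal 1 ran from 9.29 to 10.26 (SD 0.29), as wide as the spread between animals of a strain (SD 0.24) and between strain means (SD 0.22). Repeats of this animal thus reached down to the level of the highest M520/N animal. The SD of the repeats of animal 1 was 0.31 for Grm4, against 0.36 between animals and 0.28 between strain means. It was 0.07 for Grm3 and Grm7, 0.11 for Grm5 and 0.13 for Grm8, and in all 4 genes the SDs of strain means (0.08, 0.08, 0.10 and 0.09) were of similar size. In the 6 libraries of animal 4 the SD was 0.15 for Grm2 and 0.23 for Grm4. Most strains had 1 library for each animal.

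Within the recombinant families the question was whether a receptor varied among strains drawn from a single pair of progenitors. In HXB/BXH 1 of the 6 receptors, Grm7, passed the F-test (R2 62.1% against 33.3% without a strain effect, limma adjusted p 0.00454), where 19.1% of all genes passed. The adjusted p of the others ran from 0.0921 (Grm3) to 0.504 (Grm4). The Grm7 call was lost in 3 of 14 alternatives: without the animals numbered 1, without those numbered 3, and in the reconstructed table (limma adjusted p 0.185). In FXLE/LEXF 0 of 6 passed, with adjusted p from 0.234 to 0.459, where 4.61% of all genes passed by limma. At an unadjusted p under 0.05 also 0 of 6 passed, where 22.1% of all genes did. In the classic inbred strains 2 of 6 passed, Grm2 (R2 64.4%, limma adjusted p 0.00258) and Grm3, where 19.3% of all genes passed. Grm4 had an adjusted p of 0.0555 there. The Grm2 call within these strains was lost in 2 of 14 alternatives, without the animals numbered 2 and without those numbered 3. Whether a receptor's strain effect differed between the panels was not tested.

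Between the HXB/BXH progenitors 2 of the 6 receptors differed, both higher in BN-Lx/Cub, where 4.51% of all genes were called and 2.63% were higher in BN-Lx/Cub. Grm3 stood at 12.58, 12.39 and 12.30 in the BN-Lx/Cub animals and at 12.14 and 12.10 in the SHR/OlaIpcv animals. Its difference was 0.31 (SE 0.08, 1.24-fold, limma adjusted p 0.00936). Grm5 stood at 13.28, 13.04 and 13.01 in BN-Lx/Cub and at 12.78 and 12.72 in SHR/OlaIpcv, a difference of 0.36 (SE 0.11, 1.28-fold, limma adjusted p 0.0457). The groups did not overlap in either gene. Grm2 (-0.22), Grm4 (-0.23), Grm7 (-0.02) and Grm8 (0.01) did not pass, with adjusted p from 0.625 to 0.973.

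Both progenitor calls depended on the fit, and were lost in 8 of 16 alternatives for Grm3 and in 10 of 16 for Grm5. With the replicate number as a block the differences were 0.27 (adjusted p 0.104) for Grm3 and 0.33 (adjusted p 0.214) for Grm5. In the v5 Ensembl table they shrank to 0.02 and 0.04. The progenitors also differed in marker lists. SHR/OlaIpcv had the highest blood list of all strains, 12.35 against 10.97 in BN-Lx/Cub (median 11.19), a list that ran against Grm5 (r = -0.388). It had the second highest olfactory bulb list, 6.62 against 5.91 (median 5.95), which ran against Grm3 and, by Spearman's rho only, against Grm5 (-0.319). The pituitary list (r = -0.411 with Grm5) stood at 4.94 in SHR/OlaIpcv and 4.61 in BN-Lx/Cub (ranks 68 and 10 of 74), the choroid plexus list (r = -0.389 with Grm5 and -0.294 with Grm3) at 9.46 and 9.09 (ranks 64 and 18), the endothelium list (r = -0.420 with Grm5 and -0.413 with Grm3) at 10.66 and 10.57 (ranks 51 and 29) and that of oligodendrocyte precursors (r = -0.315 with Grm5) at 10.48 and 10.30 (ranks 49 and 7). Lists that ran with Grm5 were low in both. That of neurons (r = 0.349) stood at 13.29 and 13.33 (ranks 2 and 12). That of cortex and hippocampus (r = 0.343) stood at 10.58 and 10.60 (ranks 6 and 8). Over animals, after batch means were removed, r with Grm5 was 0.089 for neurons and 0.120 for cortex and hippocampus. The oligodendrocyte list, which ran with Grm3, stood at 14.77 and 14.75 (ranks 61 and 54). Their part in the Grm3 and Grm5 differences was not tested. For F344/Stm (3 animals) against LE/Stm, the latter is the single animal with liver transcripts named above, and its spread was taken from the other strains. In this comparison 0 of 6 receptors passed, where 0.796% of all genes were called by limma, and at an unadjusted p under 0.05 also 0 of 6 did (12.8% of all genes). With 1 animal this does not show that the progenitors were alike. The largest difference was that of Grm4, -0.67 with an adjusted p of 0.428.

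The strain means of the HXB/BXH family were placed against its progenitors. Of the 30 HXB/BXH strains 28 lay between the progenitor means for Grm3 and 28 for Grm5, and the other 2 lay above both in each gene. The progenitors lay closer than the SE of their difference in Grm7 (11.29 and 11.30, SE 0.07) and in Grm8 (10.31 and 10.30, SE 0.10), which leaves almost no interval to fall into, and 16 and 19 strains lay below both and 14 and 10 above. In Grm2 and Grm4 most strains, 23 and 20 of 30, lay above both progenitor means. The progenitor differences there, -0.22 (SE 0.22) and -0.23 (SE 0.32), were of the size of their SE or smaller, so these means were loosely fixed. Whether strains exceeded both progenitors was not tested. The placement of the FXLE/LEXF strains rests on the single LE/Stm animal and is not reported here.

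Whether strain means fell into separate classes was described by normal mixtures of 1 to 3 clusters. In 11 of the 12 sets of a receptor and a family 1 cluster had the lowest BIC. The remaining set was Grm7 in HXB/BXH, with 3 clusters and a BIC gain of 1.58 over 1 cluster. Its lowest cluster, at 11.09, held HXB17/Ipcv and HXB18/Ipcv, and its highest stood at 11.34. The 3 clusters of Grm7 were found in 2 of 8 alternatives. There was 1 cluster without the animals numbered 1, 2 or 3, in the reconstructed table and with a required gain of more than 6, and 2 clusters in the v5 table. With that required gain no set had more than 1 cluster. These are descriptions over 30 or 19 means, and genotypes were not analysed here.

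At the transcript level 25 of the 35 RefSeq transcripts of the 6 receptors were found in the table, and 7 varied between strains, where 13.9% of all transcripts did. These were the Grm2 transcript, 2 of 8 of Grm3, 1 of 6 of Grm5, 2 of 4 of Grm7 and 1 of 5 of Grm8, and the Grm4 transcript did not pass. Grm5 XM_017588778.2 ran from 10.31 in MWF/Hsd to 11.99 in BN/NHsdMcwi (R2 55.2%, adjusted p 0.0024). Grm8 NM_022202.1 ran from 5.52 in HXB27/Ipcv to 8.70 in LEXF10A/Stm (R2 57.3%, adjusted p 0.00049). Reads shared by transcripts of 1 gene were divided by an estimate, so levels of single transcripts are less certain than those of the gene. Without the animals numbered 1, 2 or 3 in turn between 1 and 4 transcripts passed, where 4.81% to 7.66% of all transcripts did.

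Because a brain sample holds different shares of regions and cell types, each receptor was set beside the mean level of 15 marker lists over the 74 strain means. In bulk tissue, fewer cells of a type and less RNA per cell cannot be told apart. Of the 90 pairs of a receptor and a list 30 passed an adjusted p under 0.05 by Pearson's r (two-sided permutation test, 100000 resamples) and 32 by Spearman's rho. The share of all genes that would pass against these lists is not known here, so these counts are not read as a trait of the receptors. Strains of a recombinant family share progenitors, so they are not fully independent points. The strongest relation was that of Grm4 with the cerebellum list (r = 0.758, rho = 0.743, permutation p 1e-05 for each, the smallest possible, adjusted p 0.00018 for r). It remained at 0.715 without the 2 strains farthest from the median of the list, and at 0.739 over 197 animals after batch means were removed. Grm7 and Grm8 ran against this list, with r of -0.476 and -0.432.

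Grm2 was related to the cortex and hippocampus list (r = 0.554, rho = 0.665, 0.541 without the 2 farthest strains and 0.617 within batches) and to the neuron list (r = 0.462). Grm3 ran with the oligodendrocyte list (r = 0.481, rho = 0.424) and against the olfactory bulb list (r = -0.455). Grm7 ran against the astrocyte list (r = -0.524, rho = -0.548). Grm5 ran against the endothelium list (r = -0.420) and more weakly with the cortex and hippocampus list (r = 0.343), a relation that was 0.120 after batch means were removed. Animals of the same strain were compared as well. The correlation of deviations from strain means was 0.754 for Grm4 with the cerebellum list and 0.664 for Grm2 with the cortex and hippocampus list, but 0.005 for Grm5 with the latter. That of Grm2 was of similar size with the lists of oligodendrocyte precursors (0.670), endothelium (0.631) and neurons (0.582), so it was not particular to cortex and hippocampus. Their part in the strain effects above was not tested.

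**Figure D5:**
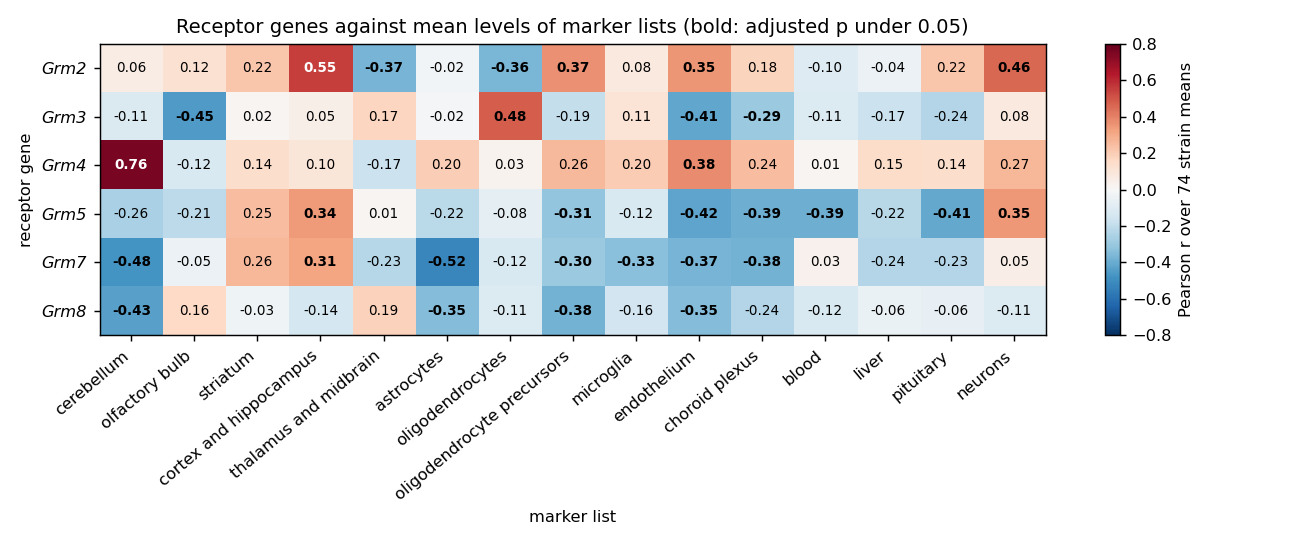
Pearson's r (colour and printed value) over 74 strain means between each receptor (rows) and the mean level of each of 15 marker lists (columns). Bold values passed an adjusted p under 0.05 by permutation, 30 of 90 in all, with the largest at Grm4 and the cerebellum list (0.76). The share of all genes that would pass is not known here.

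Between the receptors themselves, strain means were most alike for Grm3 and Grm5 (r = 0.603 over 74 strains), and deviations of 192 animals from their strain means gave 0.601. The value was 0.477 in HXB/BXH, 0.487 in FXLE/LEXF and 0.786 in the classic inbred strains. Grm4 ran against Grm7 (r = -0.527) and against Grm8 (r = -0.510), both also within each panel. Grm7 and Grm8 ran together (r = 0.462), and the group II pair Grm2 and Grm3 ran in opposite directions (r = -0.420, and -0.569 within strains). All values come from the same libraries and share their depth and tissue content.

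The genes whose strain means ran most closely with each receptor were sought among 10429 genes above the median level, over 74 strains. For Grm4 they were Shf (r = 0.864), Homer3 (0.843), a Homer protein abundant in Purkinje cells, and Cdh15 (0.831), a cadherin of cerebellar granule cells. For Grm5 they were Neto1 (0.822), an auxiliary protein of kainate receptors, Gabra2 (0.815), a GABA-A receptor subunit, and Frmpd4 (0.811), a postsynaptic scaffold protein. For Grm2 they were Sez6 (0.760), Sema4f (0.758) and Cabin1 (0.741). Vps41 (0.837), Abce1 (0.834) and Jakmip2 (0.831) led for Grm3, and Lrrtm4 (0.741), a synaptic adhesion protein, Lmo3 (0.740) and Plk2 (0.710) for Grm7. Grm8 had no close match, with Galntl6 (0.669), the kainate receptor subunit Grik1 (0.654) and Zkscan2 (0.622).

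Genes that work with these receptors were counted from a list of 53, all of them in the table. Of these 22 varied between strains (37.3% of all genes did), with a median R2 of 45.5%. They comprised 8 of 20 transducers, 5 of 14 scaffolds and partners, 7 of 15 genes of glutamate and N-acetylaspartylglutamate handling, 1 of 2 GABA-B receptor subunits, and Grm6. The highest R2 belonged to Glul, glutamine synthetase of astrocytes (70.4%, adjusted p 1.4e-09), followed by the neuronal glutamate transporter Slc1a1 (68.2%), the neutral amino acid transporter Slc1a4 (61.5%), Tamalin, a scaffold of group I receptors (61.1%), the cystine and glutamate exchanger Slc7a11 (59.3%) and Grm6. Within HXB/BXH 8 of the 53 varied, where 19.1% of all genes did. These included Tamalin (R2 72.1%, adjusted p 9.34e-07), Grm6 (1.97e-05), Slc1a1 (9.45e-05), Glul (0.000924) and Slc1a4 (0.00213), while Slc7a11 did not pass (0.107). Between the progenitors 0 of the 53 were called by limma in either family, and 10 (HXB/BXH) and 6 (FXLE/LEXF) passed an unadjusted p under 0.05, as 19.2% and 12.8% of all genes did. Gene by gene, 11 of the 53 had at least 1 strain called, where 25.2% of all genes did.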

How the data were processed

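The labels describe 232 samples. Per the study's methods and the labels, the authors made stranded rRNA-depleted libraries, trimmed reads (cutadapt 1.9.1), removed ribosomal reads (Bowtie2), aligned (HISAT2), estimated counts (RSEM), removed a factor of unwanted variation and applied the regularized log of DESeq2. What they deposited are thus log2 values. Which of the listed program versions made the v6 and v7.1 tables, and their genome build, are not given in the sources used here.

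The 73 spike-ins of the v7.1 RefSeq genes were left out and libraries of an animal averaged. Whole-table fits used limma 3.58.1 in R 4.3.3 with Benjamini-Hochberg adjustment over all genes (single strains: over all genes and strains) and a threshold of 0.05, and were tested on simulated data. Mixtures used mclust 6.1.1. Nothing in the labels says whether animals of a strain were housed or extracted separately, so p-values measure the spread between these samples. Replicate numbers name animals and partly follow batch: M520/N animals 1, 2 and 3 came from batches 15, 16 and 17. Same-numbered animals of different strains had a mean correlation of deviations of 0.013, different-numbered ones of -0.006. Fits without a replicate number therefore also lose more libraries of some batches than of others. Genes were named by rule: the 6 receptors, the 6 pathway genes of highest R2 that varied between strains, Grm6, and the 3 genes most like each receptor. An item of the rule is not reported here. The receptors and gene lists were chosen with earlier results of these data known. Batch is the batch characteristic of the labels. Fits with batch or title batch over libraries, and without animals low in Y-linked genes, were added after seeing the data. The number of animals limits the precision. Positions are those of the deposited rn6 annotation.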

Additional observations from a re-analysis of the deposited data

How the results depend on the processing

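The lower Grm2 level of M520/N and DA/OlaHsd kept its direction and passed in all alternatives in which it could be computed except batch as a covariate of averaged animals and, for DA/OlaHsd, the batch number of the titles as a term over libraries. With batch as that covariate 2 receptors passed within HXB/BXH (32.1% of all genes) and 1 within the classic inbred strains (16.2%). Between BN-Lx/Cub and SHR/OlaIpcv 0 passed (0.292%). Pairs of a receptor and a strain past the threshold numbered 0, where 0.108% of all pairs of a gene and a strain passed. With batch as a term over libraries 19 pairs passed, as 5.28% of all pairs of a gene and a strain did, and with the title batch 8 pairs and 3.34%. With the replicate number as a block 1 receptor passed within the classic inbred strains (17.4% of all genes) and 0 between the HXB/BXH progenitors (1.97%). The block lost both progenitor calls. The labels state no pairing of animals by these numbers, which partly follow batch. Centring library medians, or taking 1 library per animal, left 1 receptor called between these progenitors (4.13% and 2.63% of all genes).

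Leaving out each replicate number in turn gave 1 to 4 receptors over all strains, 0 to 2 within HXB/BXH, 0 to 1 within the classic inbred strains, 0 to 2 between BN-Lx/Cub and SHR/OlaIpcv, 2 to 5 pairs of a receptor and a strain, 1 to 6 transcripts and 0 to 2 sets with more than 1 cluster, Grm7 in HXB/BXH not among them. In these fits 14.4% to 35.2% of all genes passed over all strains, 8.04% to 19.1% within HXB/BXH and 5.75% to 17.2% within the classic inbred strains. Of all pairs of a gene and a strain 0.391% to 1.14% passed. Between BN-Lx/Cub and SHR/OlaIpcv 3.91% and 6.19% of all genes passed without the animals numbered 2 and 3. Leaving out number 1 or 4 left a single SHR/OlaIpcv animal. Of all transcripts 4.81% to 13.0% varied between strains. The reconstructed gene table gave 2 receptors over all strains (20.2% of all genes), 0 within HXB/BXH (12.7%) and 1 within the classic inbred strains (8.35%). It gave 0 between the progenitors (2.23%) and 2 pairs (0.528% of all pairs). The Ensembl versions hold 58 strains in v6 and 45 in v5, against 74 among the RefSeq genes. Counts within a panel thus need not cover the same strains. The v6 table gave 3 receptors within FXLE/LEXF, where 15.5% of all genes passed. It gave 1 within the classic inbred strains (14.9%) and 0 between the HXB/BXH progenitors (2.19%). The v5 table gave 2 within HXB/BXH (23.5% of all genes), 4 within the classic inbred strains (34.4%) and 0 between the progenitors (4.37%). It gave 18 pairs, where 5.74% of all pairs of a gene and a strain passed. The cause of these shifts was not tested.

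Some differences between BN-Lx/Cub and SHR/OlaIpcv changed sign, none of them called. Grm8 stood at -0.0034 with the batch covariate, -0.10 with the batch term over libraries, -0.096 with the title batch term, -0.045 with 1 library per animal, -0.11 in the reconstructed and v6 tables, -0.14 in the v5 table and -0.10 to 0.074 without single replicates. Grm7 stood at 0.021 with centred medians, 0.0038 with 1 library per animal and -0.058 to 0.028 without single replicates. Grm2, at -0.22 in the report, stood at 0.081 in the reconstructed table and -0.53 to 0.18 without single replicates, and Grm4, at -0.23 in the report, at 0.14 in the v5 table. For F344/Stm against LE/Stm Grm2 stood at 0.059 in the v5 table. Depth could not be assessed without counts.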
